A study of Homo sapiens with 8 samples.

Results

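The regions described here are stretches of chromatin far from any gene start that were open at 6, 24 and 72 h of TGFβ1 treatment but not in solvent. They were chosen by measured values. The peak lists of 4 conditions were merged wherever peaks shared at least 1 bp, and a merged region was kept when it held a peak in every TGFβ1 list, none in the solvent list, and lay more than 3 kb from every annotated transcription start site (TSS). This gave 14005 of 126658 merged regions. Among the 83134 regions more than 3 kb from a TSS, called distal regions below, they made up 16.8%, a share that the rule itself sets. With every list shortened to the length of the solvent list, the count was 4051 and the share 6.45%. They are called TGFβ1-only regions. Most comparisons are with the 47307 distal regions that had a peak in all 4 lists, called shared regions, and some with the 7772 distal regions open at 24 and 72 h alone.

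Accessibility was measured by ATAC-seq, in which a transposase inserts adapters into DNA that is not packed into nucleosomes, in MCF10A, an immortalised, non-tumorigenic line of human mammary epithelial cells. The cells received solvent, which the labels place at 0 h, or 5 ng/ml of the cytokine TGFβ1 for 6, 24 or 72 h, with 2 replicates per condition and 8 libraries in all. Deposited for each condition is a single peak list, for which the replicates were combined, so differences between conditions carry no replicate check and none was tested. The number of reads behind each list is unknown, the lists hold between 86209 (solvent) and 118433 (24 h) peaks, and intervals given below are 95% Wilson intervals that cover counting error only.

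The size of a peak is given as the area under its significance curve (AUC) that the peak caller assigned. No list holds a peak with an AUC under 200, and the paper's peak calling also set a significance threshold. Absence from the solvent list thus means that no peak passed these limits, not closed chromatin. The AUC was not scaled between conditions. At TSSs, all 8 basal mammary marker genes had a peak within 1 kb in every list, as did 5 of 7 luminal markers, whereas at most 2 of 6 blood cell markers had a peak in any list. Of 6 neuron markers, 4 had a peak in every list.

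TGFβ1 signals through a pair of receptor kinases that phosphorylate SMAD2 and SMAD3, which join SMAD4 and enter the nucleus. SMAD complexes bind short DNA motifs weakly on their own and commonly act beside other factors, among them AP-1 dimers of JUN and FOS proteins, RUNX proteins and TEAD proteins. In mammary epithelial cells the pathway drives an epithelial-mesenchymal transition (EMT), in which cells lose junctions, gain contractile fibres and deposit matrix. Distal open regions in such cells are often enhancers, which act on genes over a distance.

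The sequences that carry the comparison of motifs below are shown here. Each is the 101 bp around the summit of the 72 h peak on the plus strand of GRCh38 (hg38), with capitals for matches to 5 motifs, searched on both strands. These are AP-1 (TGAGTCA, or TGACTCA on the other strand), the SMAD CAGA box (CCAGACA or TGTCTGG), the palindromic SMAD site (GTCTAGAC), RUNX (TGTGGTT or AACCACA) and TEAD (CATTCCA or TGGAATG). A match describes the letters and does not show that the factor bound. The first group are 3 of the 10 strongest TGFβ1-only regions, of which none has an AP-1 match within 100 bp of the summit. The capitals in the intergenic region chr2:129007863-129009014 mark RUNX, those in the MYLK intron mark RUNX at both places, and those in the LINC00519 intron mark a CAGA box.
intergenic, chr2:129008332-129008432: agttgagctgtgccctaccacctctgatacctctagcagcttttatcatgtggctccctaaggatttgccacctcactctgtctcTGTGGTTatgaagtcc
MYLK intron, chr3:123678242-123678342: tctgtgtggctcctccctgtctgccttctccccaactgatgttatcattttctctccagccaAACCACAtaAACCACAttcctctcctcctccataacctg
LINC00519 intron, chr14:51305183-51305283: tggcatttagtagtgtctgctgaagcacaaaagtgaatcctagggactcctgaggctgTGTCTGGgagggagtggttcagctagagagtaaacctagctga

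The next group are the 2 regions with the largest increase from 6 to 72 h among those with an AUC of at least 400 at both times, of which the region near GDNF-AS1 has a CAGA box at its summit and the region in IL19 has a CAGA box and a TEAD match. Below them are 3 strong regions with the palindromic SMAD site, chosen after their values were seen. The match that follows it in the PARN intron is RUNX.
near GDNF-AS1, chr5:37771844-37771944: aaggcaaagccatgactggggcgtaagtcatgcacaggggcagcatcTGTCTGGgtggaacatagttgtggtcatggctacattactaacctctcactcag
IL19 intron, chr1:206791879-206791979: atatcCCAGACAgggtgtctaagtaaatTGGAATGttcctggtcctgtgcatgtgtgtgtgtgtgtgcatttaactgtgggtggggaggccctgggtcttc
lncRNA intron, GALNT15 nearest, chr3:16067016-16067116: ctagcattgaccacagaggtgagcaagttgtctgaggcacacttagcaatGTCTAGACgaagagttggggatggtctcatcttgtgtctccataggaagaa
PARN intron, chr16:14511340-14511440: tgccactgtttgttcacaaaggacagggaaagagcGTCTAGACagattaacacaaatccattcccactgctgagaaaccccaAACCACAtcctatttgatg
intergenic, IRS2 nearest, chr13:109874975-109875075: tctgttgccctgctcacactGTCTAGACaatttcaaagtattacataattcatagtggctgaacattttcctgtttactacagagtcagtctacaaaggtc

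The last group are regions at genes of the matrix, the actin cytoskeleton and the pathway itself, chosen after their values were seen because they carry an AP-1 match near the summit. In each the match to TGAGTCA or TGACTCA is AP-1. The further match is RUNX in the PALLD intron and TEAD in the COL5A1 intron.
PALLD intron, chr4:168759421-168759521: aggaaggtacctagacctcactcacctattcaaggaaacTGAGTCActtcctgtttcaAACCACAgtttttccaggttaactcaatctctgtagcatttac
COL5A1 intron, chr9:134670288-134670388: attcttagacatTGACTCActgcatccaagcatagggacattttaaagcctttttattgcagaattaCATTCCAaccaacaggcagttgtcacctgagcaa
upstream of SMURF2, chr17:64732858-64732958: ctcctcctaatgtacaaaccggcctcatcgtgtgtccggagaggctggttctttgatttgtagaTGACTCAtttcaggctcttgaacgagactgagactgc

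The strongest TGFβ1-only regions lay well above the median AUC of shared regions, which was 1024 at 6 h. Ranked by their lowest AUC, the region of highest rank was chr19:13829582-13832007, in an exon shared by ZSWIM4 and MIR23AHG, the host transcript of a microRNA cluster. At 6, 24 and 72 h its AUCs were 3245, 3754 and 3624. The intergenic region on chromosome 2, 688995 bp from HS6ST1, a heparan sulfate sulfotransferase, had AUCs of 2839, 5159 and 4855. That in the intron of MYLK, the kinase that switches on myosin for contraction, lay 3592 bp from the TSS and had AUCs of 2337, 3044 and 3124. All 3 had an AUC of at least 2337 as early as 6 h, and their nearest solvent peaks were 1258, 15887 and 16798 bp away.

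Of the other strongest regions, that in the LINC00519 intron had AUCs of 2309, 3349 and 3266 at 6, 24 and 72 h. A region 24636 bp from HIF3A, a hypoxia-inducible factor subunit, had 2148, 2829 and 2808. One in CAPZA2, which encodes an actin capping protein subunit, had 1963, 2415 and 2280. Across all 10, AUCs at 6 h ran from 1963 to 3245, against a median of 333 for TGFβ1-only regions in general, and at 24 h every one of them was higher than at 6 h. Only 171 of the 14005 regions had an AUC of at least 1000 in every TGFβ1 list, and 3891 had a lowest AUC under 250, close to the limit for being listed. Just outside the rule on the other side, 3670 shared regions had a solvent AUC under 250.

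Motif content depended on how strong a region was, and differently so in TGFβ1-only and shared regions. Within 100 bp of the summit, the AP-1 motif stood in 41.4% of TGFβ1-only regions (40.6 to 42.2), in 38.8% of shared regions (38.4 to 39.3) and in 37.6% of all distal regions. In shared regions the AP-1 share grew with the AUC at 72 h, from 19.9% at an AUC of 200 to 400 and 32.3% at 400 to 800 to 43.2% at 800 to 1600 and 46.0% above 1600. In TGFβ1-only regions it was 34.5%, 48.1%, 42.6% and 33.6% in the same classes, so that it was highest at moderate AUC and lower in the strongest 262 regions (28.1 to 39.5) than in shared regions of that class (45.1 to 46.8). By the AUC at 6 h the share was again highest at moderate AUC, but the classes differed less. In TGFβ1-only regions it was 40.6% at 200 to 400 (39.6 to 41.6) and 43.3% at 400 to 800 (41.8 to 44.8). From 800 upwards it was 41.2% (36.6 to 45.9), an interval that holds the 42.8% of shared regions of that class. In regions open at 24 and 72 h alone the AP-1 share also fell in stronger classes by the AUC at 72 h. It was 43.7% at 200 to 400, 40.8% at 400 to 800 and 30.2% at 800 to 1600 (25.5 to 35.3).

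The SMAD CAGA box showed a different course. It stood in 7.23% of TGFβ1-only regions (6.81 to 7.67), 5.52% of shared regions and 5.94% of all distal regions. At an AUC of 200 to 400 at 6 h it stood in 6.02% of TGFβ1-only regions (5.56 to 6.52), at 400 to 800 in 8.59% (7.77 to 9.50), and from 800 upwards in 91 of 427 regions, 21.3% (17.7 to 25.4). In shared regions the 3 shares were 3.64%, 4.36% and 6.27%. The palindromic SMAD site was rare but followed the same order, with 0.230%, 0.944% and 4.45% of TGFβ1-only regions, against 0.303%, 0.151% and 0.268% of shared regions. It stood in 79 TGFβ1-only regions in all, 0.564% of them, and in 0.333% of all distal regions. The 6 h classes were chosen after the values at 72 h had been seen, where the CAGA box stood in 5.16%, 7.61%, 10.0% and 21.0% of TGFβ1-only regions from the weakest to the strongest class.

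RUNX matches in TGFβ1-only regions grew with the AUC at 72 h. Over all distal regions they stood in 7.47%, and TEAD matches in 6.40%. RUNX stood in 4.86% of TGFβ1-only regions with an AUC of 200 to 400 at 72 h, 8.46% at 400 to 800, 12.7% at 800 to 1600 and 15.6% above 1600 (11.7 to 20.5). In shared regions the shares were 4.52%, 5.56%, 7.15% and 8.92%. In regions open at 24 and 72 h alone they were 7.11%, 12.4% and 22.5% (18.4 to 27.2) in the classes up to 1600. Above 1600 that set held only 10 regions. The growth was thus not particular to TGFβ1-only regions. By the AUC at 6 h, by contrast, TGFβ1-only regions had RUNX shares of 7.56%, 8.27% and 7.96%, whose intervals overlap, and shared regions 6.34%, 6.28% and 7.40%. Within 50 bp of the summit, a window chosen after seeing the data, RUNX stood in 6.87% of TGFβ1-only regions above 1600 (4.39 to 10.6) and 4.77% of shared ones (4.43 to 5.14), so that the intervals overlap there. TEAD matches went from 5.38% to 8.78% of TGFβ1-only regions from the weakest to the strongest class at 72 h, and from 4.64% to 6.84% of shared regions. Median GC content of the window was between 43.8% and 45.3% in the 4 classes of TGFβ1-only regions and between 46.8% and 48.8% in those of shared regions, and width grew with AUC in both. The part of base composition and width in these shares was not tested.

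**Figure D1:**
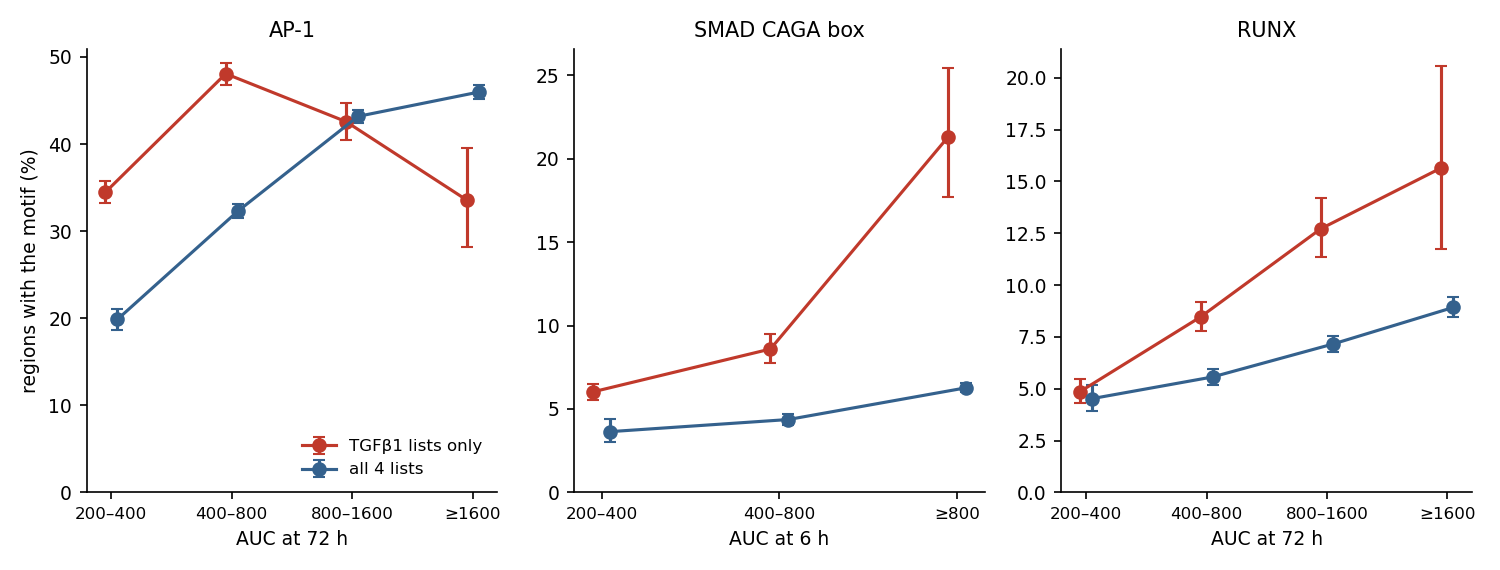
Share of distal regions (%, y axis) with an AP-1, SMAD CAGA box or RUNX match within 100 bp of the summit, by AUC class at 72 h or at 6 h (x axis), in red for TGFβ1-only regions and in blue for regions in all 4 lists. Bars are 95% Wilson intervals. AP-1 peaks at an AUC of 400 to 800 in TGFβ1-only regions (48.1%) and keeps growing in shared regions, and the CAGA box reaches 21.3% in TGFβ1-only regions with an AUC of 800 or more at 6 h.

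Among the 262 TGFβ1-only regions with an AUC above 1600 at 72 h, 88 had an AP-1 match, 63 a CAGA box or palindromic SMAD site, 41 a RUNX match and 109 none of these. A SMAD motif and AP-1 stood together in 18 and a SMAD motif and RUNX in 11. The palindromic site stood in 8 of them. Of those printed above, the region nearest to GALNT15, an O-glycosylation enzyme, had AUCs of 1895, 3253 and 3708 at 6, 24 and 72 h. That in the intron of PARN, a nuclease that shortens poly(A) tails, had 1107, 2142 and 2303. The region nearest to IRS2, an adaptor of the insulin receptor, had 287, 1589 and 1768, so that it was near the limit of the list at 6 h and strong from 24 h on.

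The E-box, CTCF and C/EBP motifs were less frequent in TGFβ1-only than in shared regions. The E-box CAGGTG, which SNAIL and ZEB proteins bind, stood in 14.4% (13.9 to 15.0) against 18.9% (18.6 to 19.3), and in 17.6% of all distal regions. The long CTCF consensus stood in 2.28% against 3.96%, with 3.16% of all distal regions, and it was almost limited to the weakest class, with 4.91% of TGFβ1-only regions at an AUC of 200 to 400 at 72 h and 0 of 262 above 1600, which allows a share of up to 1.15% by a limit of 3 counts and 1.45% by the Wilson interval. C/EBP matches stood in 2.30% against 3.56%, and in 3.20% of all distal regions. For p63, the basal epithelial factor, the shares were 1.81% and 1.43% (1.51% of all distal regions), and for forkhead proteins 3.88% and 3.95% (3.90%). TGFβ1-only regions with AP-1 had fewer TEAD matches (5.02%) and RUNX matches (6.26%) than those without (7.99% and 8.85%). The same held in shared regions, with 5.37% and 6.12% against 6.49% and 7.54%. It also held in regions open at 24 and 72 h alone, with 6.51% and 6.39% against 10.3% and 11.9%. In TGFβ1-only regions the CAGA box was as frequent with AP-1 (7.11%) as without (7.31%) within counting error.

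AP-1 matches sat close to the summit. Their median distance from it was 29 bp in TGFβ1-only regions and 37 bp in shared regions, and 38.8% against 32.4% of all matches within 200 bp lay within 20 bp. In TGFβ1-only regions the CAGA box was less central, with a median distance of 68 bp and 17.2% within 20 bp, as was RUNX with 70 bp and 14.6%. In shared regions the medians of these motifs were also larger, 80 bp and 77 bp. TGFβ1-only regions were narrower, with a median of 273 bp against 465 bp, and the part of width in these distances was not tested. Summits themselves were stable over the time course. The 6 h and 72 h summits of a TGFβ1-only region were a median of 9 bp apart, and 89.6% were within 50 bp of each other.

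**Figure D2:**
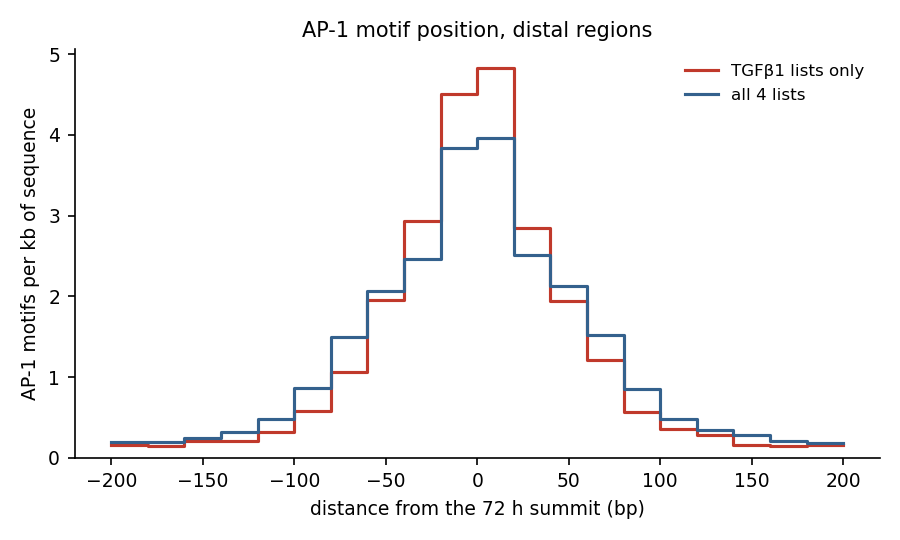
Density of AP-1 matches (motifs per kb of sequence, y axis) by distance from the 72 h summit (bp, x axis, steps of 20 bp) in TGFβ1-only regions (red) and regions in all 4 lists (blue). Both are highest at the summit, where TGFβ1-only regions reach 4.83 matches per kb against 0.161 at the right edge.

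Over the time course, TGFβ1-only regions gained between 6 and 24 h and then held their level. The median AUC at 6 h was 333 (quartiles 264 and 435), which became 467 (347 and 656) by 24 h and 456 (319 and 684) by 72 h. Shared regions stood at 1024, 1083 and 1041. The AUC at 24 h was at least 2 times that at 6 h in 2002 TGFβ1-only regions (14.3%), against 3.58% of all distal regions with a peak in every TGFβ1 list. From 24 to 72 h the count was 138 (0.985%), against 0.341%. From 6 to 72 h it was 2609 (18.6%), against 5.06%. A 72 h AUC of at most 0.5 times that at 6 h was found in 59 regions (0.421%), against 1.45%, but such a drop can be seen only where the 6 h AUC is at least 400.

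Regions were also compared within classes of AUC at 6 h, in which TGFβ1-only regions still started lower, with medians of 488 against 592 between 400 and 800, and 288 against 342 between 200 and 400. Between 400 and 800, 13.7% of TGFβ1-only regions (12.7 to 14.8) and 1.84% of shared regions (1.64 to 2.08) were at least 2 times higher at 72 h, and the median log2 ratios were 0.36 and -0.01. Between 200 and 400, these shares were 21.1% and 4.99%, with median log2 ratios of 0.43 and 0.11. Because the absence of a listed solvent peak chose the TGFβ1-only regions, these differences are a description. Of all TGFβ1-only regions, 76.2% were higher at 72 h than at 6 h, and 45.1% had their highest AUC at 24 h, 44.1% at 72 h and 10.9% at 6 h.

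**Figure D3:**
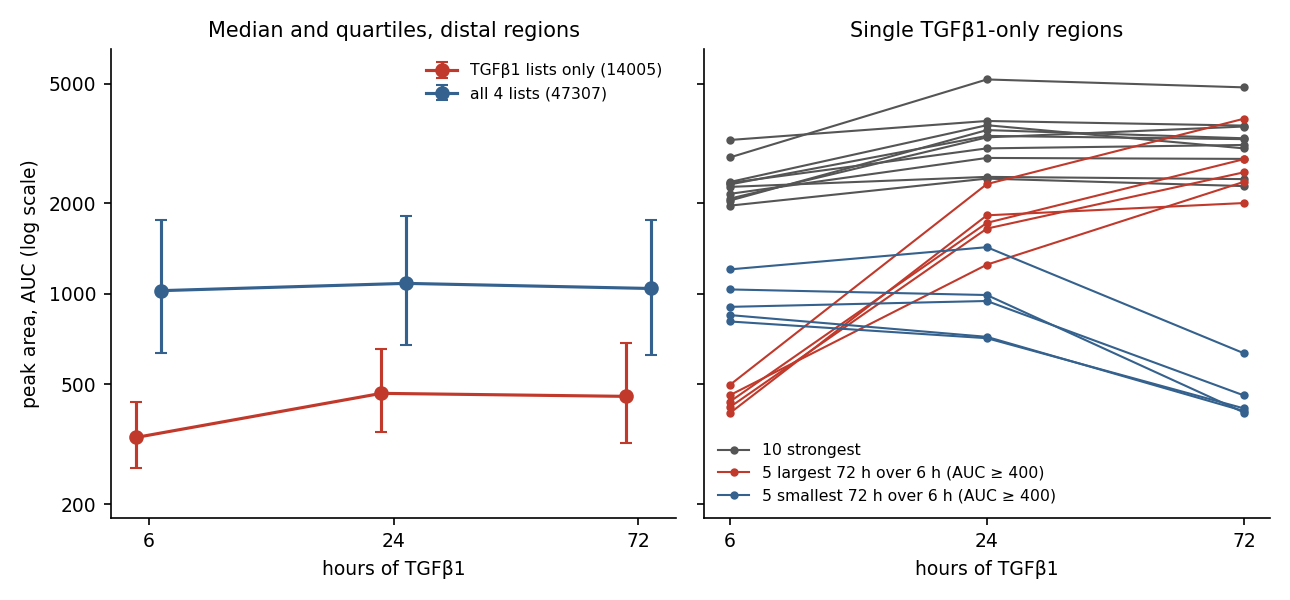
Peak area (AUC, log scale, y axis) at 6, 24 and 72 h of TGFβ1 (x axis). Left, medians with quartiles for TGFβ1-only regions (red) and distal regions in all 4 lists (blue). Right, single TGFβ1-only regions, with the 10 strongest in grey and, among those with an AUC of at least 400 at 6 and 72 h, the 5 with the largest 72 h over 6 h ratio in red and the 5 with the smallest in blue. The median of TGFβ1-only regions goes from 333 to 467 between 6 and 24 h and is 456 at 72 h.

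The largest increases among regions with an AUC of at least 400 at 6 and 72 h took regions of 401 to 497 at 6 h to 2003 or more at 72 h. That near GDNF-AS1, the antisense gene of a neurotrophic factor, went from 497 at 6 h to 2316 at 24 h and 3820 at 72 h, a log2 ratio of 2.94. The region in an IL19 intron, 17017 bp from the TSS of IL10, a cytokine that dampens inflammation, went from 438 to 1721 and 2803. One in VEPH1 went from 401 to 1823 and 2003. In all 3 the larger step was between 6 and 24 h, and the other 2 regions of this group reached 2535 and 2357.

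At the other end of these stood regions that were strong at 6 and 24 h and of ordinary size at 72 h. Their AUCs at 72 h were 403 to 634, within the quartiles of all TGFβ1-only regions (319 and 684). The smallest ratio belonged to a region 13169 bp from the TSS of DUSP10, a phosphatase of the p38 and JNK kinases, with AUCs of 1034, 991 and 403 and a log2 ratio of -1.36. A region 134155 bp from CYP26B1, which degrades retinoic acid, had 850, 719 and 408. One 10337 bp from LBHD2 had 1205, 1429 and 634. In all 5 regions of this group the drop lay between 24 and 72 h for the greater part, and only that near DUSP10 had an AP-1 match.

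Regions that were at least 2 times higher at 72 h than at 6 h differed from the rest in RUNX and TEAD matches, but also in AUC. Since no listed AUC is under 200, such a rise needs an AUC of at least 400 at 72 h. The median AUC at 72 h was 802, against 400 for regions between 0.5 and 2 times. The contrast thus overlaps with that of the 72 h classes above, and they were not separated. RUNX stood in 14.0% of those 2609 regions (12.7 to 15.4), against 6.33% of the 11337 regions between 0.5 and 2 times (5.90 to 6.80). TEAD stood in 8.85% (7.82 to 10.0) against 6.29% (5.86 to 6.75). The CAGA box, at 7.93% against 7.07%, and AP-1, at 43.5% against 41.0%, differed little. E-box matches were fewer, 11.5% against 15.1%, and the CTCF consensus nearly absent, 0.153% against 2.79%. Both motifs were most frequent in the weakest 72 h class, with 16.8% and 4.91% of TGFβ1-only regions, and that class holds no region with such a rise. Regions open at 24 and 72 h alone, which lack a 6 h peak, had RUNX in 9.57% (8.94 to 10.2) and TEAD in 8.70%, and those open at 72 h alone had RUNX in 13.0% (12.0 to 13.9) but the CAGA box in 5.00% (4.42 to 5.66). The CAGA box stood in 7.24% of regions open at 24 and 72 h alone (6.69 to 7.84), much as in TGFβ1-only regions, and in 11.5% of the 338 of these with an AUC of 800 to 1600 at 72 h (8.56 to 15.4).

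TGFβ1-only regions lay farther from TSSs than shared ones. Their median distance to the nearest TSS was 16628 bp, against 14214 bp for shared regions and 17887 bp for regions open at 24 and 72 h alone. Beyond 100 kb lay 5.88% of them and 3.81% of shared regions. Taken as a share of all distal regions, TGFβ1-only regions grew from 15.0% at 3 to 5 kb (14.4 to 15.7) to 21.2% beyond 100 kb (20.0 to 22.6). The 5 most distant were between 457556 and 533412 bp from any TSS, 3 of them on chromosome 3, where DIPK2A was the nearest protein-coding gene. The one on chromosome 18, with AUCs of 442, 531 and 773, had an AP-1 and a RUNX match.

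**Figure D4:**
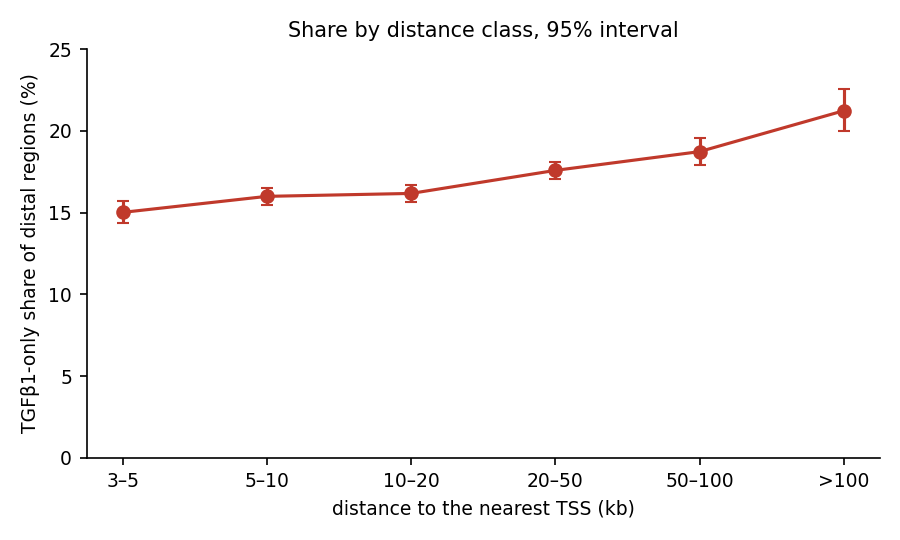
Share of distal regions that were TGFβ1-only (%, y axis) by distance to the nearest TSS (kb, x axis), with 95% Wilson intervals. The share grows from 15.0% at 3 to 5 kb to 21.2% beyond 100 kb.

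At the distance limit itself, the 3 regions that passed by 1 bp were in introns of ANKS1B (AUCs of 200, 434 and 489) and of CDH1, the gene of E-cadherin (323, 316 and 295), and near HMX2 (294, 465 and 247). Those that failed it by 2 bp or less, at 2998 or 2999 bp, were in introns of ACTN1, an actin crosslinker (493, 719 and 536), RNF13 (209, 257 and 295) and RPS9 (265, 317 and 264). Within 500 bp past the limit lay 449 TGFβ1-only regions, and within 500 bp short of it 455 regions with the same pattern of peaks. In all, 4080 regions with this pattern lay within 3 kb of a TSS.

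Most were inside genes. The midpoint lay in a gene for 60.6% of TGFβ1-only regions (59.8 to 61.4) and 61.2% of shared ones, in an intron for 57.6% of either, and in an exon for 2.99% (2.72 to 3.29) against 3.58% (3.42 to 3.75). The first intron of a gene's main transcript held 17.2% and 18.4%. Where the host was protein-coding, its own TSS was the nearest protein-coding TSS in 5853 of 6428 cases (91.1%). Regions were narrower than shared ones, with a median of 273 bp against 465 bp, and their sequence was poorer in GC, 44.3% against 47.8%.

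Many TGFβ1-only regions lay near a region that was already open. The nearest solvent peak was a median of 8888 bp away, and it was within 1 kb for 1658 of them (11.8%, 11.3 to 12.4) and within 10 kb for 7427. Of regions open at 24 and 72 h alone, 7.14% had a solvent peak within 1 kb (6.59 to 7.73). More than 100 kb from any solvent peak were 583 TGFβ1-only regions (4.16%).

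These regions were spread over many genes. By the nearest protein-coding TSS, 6150 of the 12422 genes with a distal region had at least 1 of them, 2992 had at least 2 and 85 had at least 10. The genes with the highest counts had many distal regions of every kind. PCDH9, a protocadherin, had 21 of its 62 distal regions in the group, TENM4, a teneurin adhesion protein, 19 of 110, and MYC, the growth regulator repressed during TGFβ1 arrest, 18 of 87. TRPS1, a transcriptional repressor, had 18 of 81. As hosts, RUNX1 led with 16 of 82 distal regions in its body, followed by an unnamed lncRNA (ENSG00000228566) with 15 of 36 and by 3 genes with 14, among them LRMDA with 14 of 35.

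RUNX1 encodes a RUNX factor whose motif is described above. Its TGFβ1-only regions had a median AUC of 481, 558 and 664 at 6, 24 and 72 h, and their share of its distal regions, 19.5%, was near the 16.8% over all distal regions. The strongest, chr21:35159725-35160303, had AUCs of 974, 1390 and 1369 and holds a palindromic SMAD site and 2 AP-1 matches. Another, chr21:35559180-35559434, went from 209 to 507 and 693.

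Among the 2647 genes with at least 10 distal regions, the median share was 16.7%, with quartiles of 10% and 23.1%. Over all distal regions it was 16.8%. The largest shares were at ANKFN1 and RAPGEF6, an exchange factor of RAP proteins, with 6 of 10 each. NID2, a basement membrane glycoprotein, had 6 of 11, TMEM74 8 of 15 and CCDC34 5 of 10. The last was tied with other genes, among them INHBA. By contrast, 183 of the 2647 genes had none, led by LPIN1, a phosphatidate phosphatase, with 0 of 32. Both ends are extremes picked from many genes, and how far counting error alone would give them was not tested.

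Ligand, receptor and SMAD genes had TGFβ1-only regions at shares near the 16.8% over all distal regions. Among ligands and latency proteins, 27 of 157 distal regions (17.2%) were TGFβ1-only, at 6 of 9 genes with distal regions. TGFB2, a ligand, had 8 of 49, with AUCs up to 1239 at 72 h, and INHBA, the subunit of activin A, had 5 of 10. The INHBA regions were weak, with AUCs of 214 to 380 at 6 h and 292 to 484 at 72 h, and lay 86358 to 255033 bp from its TSS. LTBP1, which holds latent TGFβ in the matrix, had 7 of 32, all inside the gene. Among receptors the count was 21 of 122 (17.2%), with 9 of 38 at TGFBR2, the ligand-binding receptor, 9 of 45 at ACVR2A, an activin receptor, and 0 of 20 at TGFBR3, a co-receptor.

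SMAD genes had 15 of 98 (15.3%), of which 4 of 24 at SMAD3, a signal transducer, including chr15:67044000-67044769 with AUCs of 415, 915 and 1215. The inhibitory SMAD7 had 2 of 19. Feedback regulators and SMAD cofactors had 27 of 112 (24.1%, 17.1 to 32.8). SMURF2, a ubiquitin ligase that removes SMADs and the receptor, accounted for 9 of its 19 distal regions, NEDD4L, a further ligase of SMADs, for 7 of 38, and the SMAD repressors SKI and SKIL for 2 of 6 and 1 of 2.

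The SMURF2 regions lay 5742 to 74662 bp upstream of its TSS and were of moderate size. The 5 farthest formed a run of 12.9 kb, chr17:64724316-64737196, in which all 5 distal regions were TGFβ1-only and no solvent peak fell. Their AUCs at 6 h were 358, 258, 610, 780 and 254, and at 72 h 310, 557, 647, 771 and 262. The third of these, printed above, has an AP-1 match. In the run the largest region was about as large at 6 h as at 72 h.

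Matrix genes formed the largest group. Of 448 distal regions nearest to 28 genes of the extracellular matrix, 95 were TGFβ1-only (21.2%, 17.7 to 25.2), spread over 23 genes. Their median AUCs at the 3 times were 357, 559 and 616. The median log2 ratio of 72 h over 6 h was 0.73, beside 0.41 over all TGFβ1-only regions. At least 2 times higher were 26 of the 95, beside 2609 of all 14005 (18.6%). Of the 20 lists, basal markers alone had a higher median ratio, 0.99 on 8 regions. Next below matrix genes came YAP and TEAD genes with 0.64 and ERK feedback genes with 0.63. SPOCK1, a matrix proteoglycan, had 15 of 56, COL5A1, a fibrillar collagen chain, 7 of 17, and COL6A3, a chain of microfibrillar collagen, 7 of 24.

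Single matrix regions were among the stronger ones. At COL5A1, chr9:134602411-134603062 had AUCs of 1049, 1737 and 2159 at 6, 24 and 72 h, and chr9:134670007-134670551, printed above, had 1192, 1312 and 1327. At COL1A1, the main chain of collagen I, the only TGFβ1-only region had 967, 1537 and 2021. At FN1, which encodes fibronectin, the nearest of 5 had 514, 1343 and 1635. At POSTN, the gene of the matricellular protein periostin, chr13:37443450-37443976 had 1436, 2037 and 2236, and was the strongest of 6 among 20 distal regions of which 4 had a solvent peak. At COL12A1, a region 6079 bp from the TSS had 269, 388 and 1568. It was 1 of the 138 TGFβ1-only regions (0.985%) at least 2 times higher at 72 h than at 24 h. Of all distal regions with a peak in every TGFβ1 list, 0.341% were.

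Genes of the actin cytoskeleton had 31 of 179 (17.3%). All 11 regions of PALLD, an actin bundling protein, were inside the gene, among 40 distal regions nearest to it. The strongest of them, chr4:168694650-168695102, had AUCs of 800, 1635 and 1762, and the region printed above had 503, 669 and 743. CALD1, which regulates actomyosin, had 4 of 9. Among proteases and inhibitors the count was 16 of 102 (15.7%), with MMP10, a stromelysin, at 4 of 5. The MMP10 regions had AUCs of 299, 794, 236 and 265 at 6 h and 868, 877, 724 and 358 at 72 h, and 3 of them lay within 6 kb of each other. At MMP9, a gelatinase, the only region, 3637 bp from the TSS, had 1211, 1816 and 1760.

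EMT and mesenchymal transcription factors had 79 of 424 (18.6%, 15.2 to 22.6). Most were at RUNX1 (16 of 83), ETS1 (11 of 52), HMGA2, a chromatin protein induced by TGFβ (10 of 35), and SOX9 (10 of 70). The strongest ETS1 region, chr11:128052918-128053650, had AUCs of 1240, 2014 and 2079 and lay 410300 bp from the TSS. HMGA2 had a region 5012 bp from the TSS with 359, 711 and 1416. Of the factors most tied to EMT, SNAI2 had 4 of 14, ZEB2 4 of 45, SNAI1 1 of 12, ZEB1 1 of 7 and TWIST1 0 of 5. AP-1 subunits and relatives had 13 of 89 (14.6%), among them FOSL2 with 4 of 23, JUN with 3 of 23 and FOS with 0 of 11.

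Epithelial genes had fewer. Of 236 distal regions nearest to genes of junctions and epithelial identity, 28 were TGFβ1-only (11.9%, 8.34 to 16.6), and 8 of these were at TJP1, the tight junction scaffold, out of 29. At TJP1, chr15:29860033-29860571 went from 317 to 921 and 1192. GRHL2, an epithelial transcription factor, had 0 of 21 and EPCAM, a surface adhesion protein, 0 of 10. CDH1 had 1 of 7, the region just inside the distance limit. Some others in the list were near the share over all distal regions, as GRHL3 with 4 of 20 and DSC3 with 4 of 25. Of its 23 genes with distal regions, 13 had at least 1 TGFβ1-only region. Basal mammary markers had 8 of 84 (9.52%, 4.91 to 17.7), of which TP63 had 4 of 22, and luminal markers had 8 of 66 (12.1%).

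The remaining lists were near the share over all distal regions or under it. The cell cycle list, with MYC, had 26 of 136 (19.1%), ERK feedback genes 27 of 189 (14.3%), integrins 16 of 115 (13.9%), EGF receptor ligands and receptors 22 of 165 (13.3%), YAP and TEAD genes with targets 12 of 98 (12.2%) and glucocorticoid response genes 13 of 121 (10.7%). Of the lists of other cell types, blood cell markers had 10 of 44 (22.7%, 12.8 to 37.0) and neuron markers 14 of 65 (21.5%, 13.3 to 33.0), shares as high as that of the matrix genes, on few genes. At PTPRC, which accounted for 8 of the 10 blood marker regions, they lay 150990 to 550244 bp from the TSS. Over 20 lists, intervals that miss 16.8% are met by counting error alone at times. They did so for matrix genes and feedback regulators above it and for epithelial genes below it. Of the 27 regions of the feedback list, 9 were at SMURF2, and 5 of these lay in a single run. That list's share thus rests in part on a single locus.

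**Figure D5:**
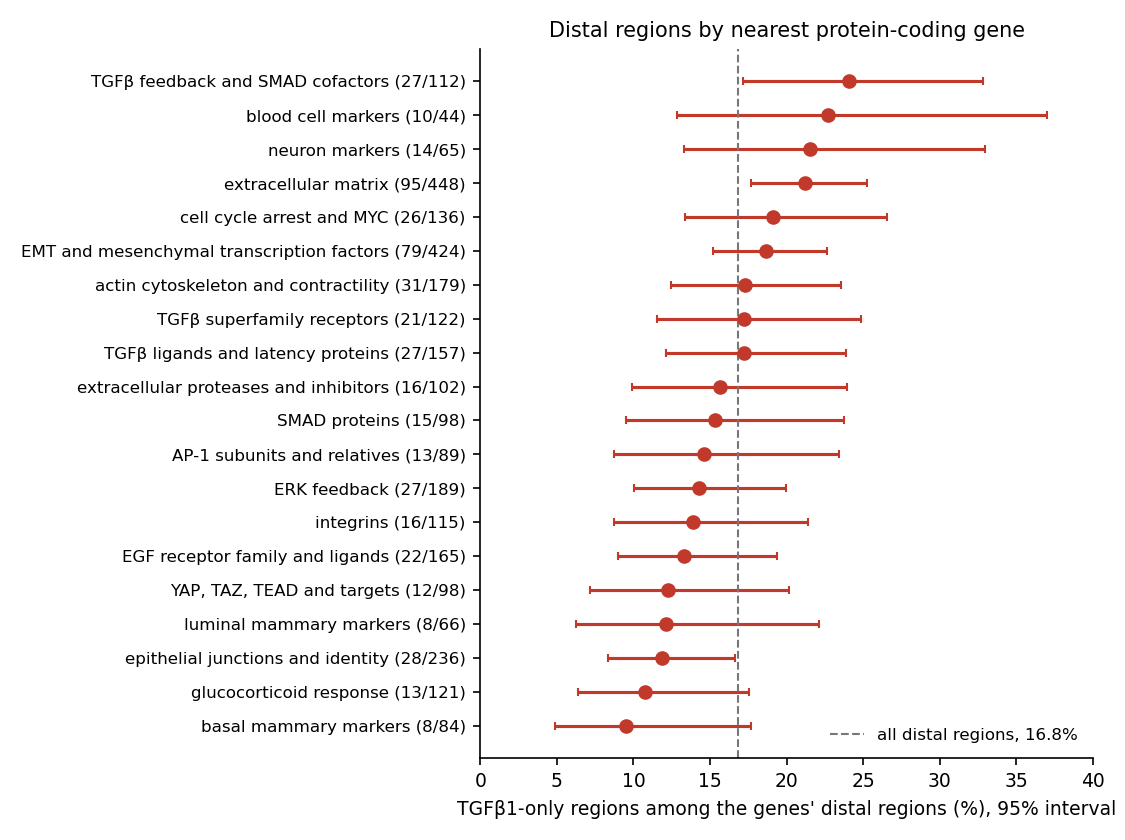
Share of distal regions that were TGFβ1-only (%, x axis, points with 95% Wilson intervals) for 20 gene lists, by nearest protein-coding gene, with counts of TGFβ1-only and all distal regions in brackets. The dashed line is the 16.8% over all distal regions. Feedback regulators lie at 24.1% and matrix genes at 21.2%, epithelial genes at 11.9% and basal markers at 9.52%.

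Along the chromosomes, TGFβ1-only regions stood mostly alone. Joined over gaps of up to 12479 bp, 21.8% of them fell into runs of at least 2, against 10.6% with lists shortened to the solvent list's length and 9.80% with a minimum AUC of 400 in the TGFβ1 lists alone. There were 1206 pairs, 182 runs of 3 and 23 runs of 4 or more, and the largest had 5. Besides that at SMURF2, runs of 5 lay near ATP10B on chromosome 5, with a median AUC of 416 at 6 h and 1187 at 72 h, in TBC1D9 on chromosome 4 (519 and 600) and near SEMA3A, a guidance cue, on chromosome 7 (461 and 339). The run near ATP10B thus grew while that near SEMA3A did not. The next distal region along the chromosome was TGFβ1-only after 18.1% of TGFβ1-only regions (17.5 to 18.8) and after 16.1% of shared regions (15.8 to 16.4), beside 16.8% after distal regions in general.

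Chromosome 4 had the highest share, 19.1% of its distal regions (18.0 to 20.2), and chromosome 22 the lowest, 13.5%. Over 1980 bins of 1 Mb with at least 20 distal regions, the median share was 16.4% with quartiles of 11.9% and 21.4%. The bin with the largest share, at 52 to 53 Mb of chromosome 1, had 10 of 22 (45.5%, 26.9 to 65.3). There were 10 bins without a TGFβ1-only region and 89 with a share of 30% or more.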

How the data were processed

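ATAC-seq of 8 MCF10A libraries was used as 4 deposited peak lists in narrowPeak layout, 1 per condition. Per the study's methods and the submitters' processing notes, the authors used Trimmomatic 0.38 for trimming, Bowtie2 2.4.5 for mapping to GRCh38, and Picard and SAMtools 1.4.1 for filtering, called peaks on both replicates together with Genrich 0.5 and removed blacklisted regions. The deposited signal of a peak is its AUC, which depends on depth and width, and the deposited −log10 q value describes its summit. The 4 columns of −log10 p were not used. The number of reads left after filtering is not part of a list, so the usable depth is unknown. For solvent the labels give 0 h and the study's text 72 h.

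Lists were merged at 1 bp of overlap, and AUCs summed per region and list. Distances ran from the region's nearest edge to 251784 transcript starts of GENCODE 44, and hosts were taken at the midpoint. Motifs (17) were searched on both strands in 201 bp around the summit of the strongest 72 h peak, or of the latest list with a peak. Beyond those spelled out, they were ETS AGGAAGT, CRE TGACGTCA, forkhead TGTTTAC, KLF GGGCGTGGC or GGGTGTGGC, GRHL AACCGGTT, AACCTGTT or AACAGGTT, STAT TTCNNNGAA, C/EBP TTGCGCAA, TTGCACAA or TTGCATAA, and, by name, NF-kB, p63, glucocorticoid receptor and CTCF. Runs joined neighbouring regions over short gaps, of which the largest measured 12479 bp. Named were the 10 regions with the largest lowest AUC, the 5 largest and 5 smallest ratios of 72 h over 6 h at an AUC of at least 400, the 5 farthest from a TSS, 3 regions on either side of 3 kb, the genes with most regions or the largest share, the largest runs and bins, and up to 4 genes per list, with others named after their values were seen. Not every result these rules select is reported here. The regions and lists were chosen with earlier results of these data known. The steps were tested on simulated data. Python 3.11.15, numpy 2.4.6, pandas 2.3.3, scipy 1.17.1, pysam 0.24.0 and matplotlib 3.10.9 were used.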

Additional observations from a re-analysis of the deposited data

How the results depend on the processing

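No paired analysis was possible because each peak list was called on both replicates together, and for the same reason no replicate could be left out. Merging peaks up to 100 bp apart moved no result beyond its counting interval. With a minimum AUC of 400 in every list, TGFβ1-only regions were 19.5% of distal regions, their median distance was 15956 bp, 61.8% lay in genes, 42.9% had AP-1, 20.3% were in runs and 9.05% within 1 kb of a solvent peak, and the median log2 ratio of 72 h over 6 h was 0.25. With lists shortened to the solvent list's length, 4051 regions remained (6.45% of distal regions), with values of 17455 bp, 45.4% for AP-1, 10.6% in runs and a log2 ratio of 0.54. With the minimum AUC in the TGFβ1 lists alone, there were 3652 (5.72%), with 45.0% for AP-1, 9.80% in runs, 12.9% near solvent and 0.48. Without regions within 1000 bp of a solvent peak, the share was 14.9%, 18.9% were in runs and the log2 ratio was 0.43. With protein-coding TSSs alone the values were 16.5%, 37375 bp, 61.5% in genes and 23.0% in runs, and beyond 10000 bp from every TSS they were 17.5%, 27177 bp, 55.7% in genes, 42.2% for AP-1, 11.2% near solvent and 0.42. The log2 ratio was 0.22 for AUC per covered length and 0.45 relative to shared regions. AP-1 stood in 32.3% within 50 bp of the summit and in 44.9% of whole regions, 45.9% of regions lay in protein-coding genes, and 12.6% were in runs with gaps of at most 5000 bp. The other 25 values stayed within their counting intervals or within 1.5 times the count. The cause of these shifts was not tested. Other windows for the motif shares by AUC class were chosen after seeing the data. Within 50 bp of the summit, over whole regions and at the 6 h summit, the CAGA box stood in 15.5%, 34.4% and 21.3% of TGFβ1-only regions with an AUC of 800 or more at 6 h, against 3.68%, 15.9% and 6.14% of shared ones, and AP-1 in 17.9%, 46.6% and 35.1% of those above 1600 at 72 h, against 28.6%, 61.3% and 46.3%. RUNX stood in 6.87%, 28.6% and 15.6% of the latter, against 4.77%, 22.6% and 8.70%.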

Other observations

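Genes with many distal regions and no TGFβ1-only region included several that epithelia use. Of 2647 genes with at least 10 distal regions, 183 had none, beside a median share of 16.7% over these genes. After LPIN1 came IER5, an immediate early gene, with 0 of 26, MYO1E, a motor of cell edges, with 0 of 24, and CLDN10, a tight junction claudin, and EMP1, an epithelial membrane protein, with 0 of 22 each. CTNNA1, which links cadherins to actin, had 0 of 20. Most of these distal regions were open in solvent, 22 of 26 at IER5, 19 of 22 at EMP1 and 15 of 20 at CTNNA1. These genes were picked for their counts and no cause was tested.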
